A study of Mus musculus with 4 samples.

Results

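The MHC class II genes are those whose products capture peptides from taken-up protein and show them to CD4+ T cells. The 8 genes followed here were H2-Aa, H2-Ab1, H2-Eb1, H2-DMa, H2-DMb1, H2-Ob, Cd74 and Ciita. They were chosen by name, with earlier results of these data known. Every probe set that the platform's annotation gives to them was taken. A probe set is the group of short probes on the array that reads 1 transcript. Of the 22690 probe sets, 10 belonged to a single member and together read 6 of the 8 genes. A further 3 were assigned to a member and to a second gene. H2-DMb1 shared both of its probe sets with its neighbour H2-DMb2, and H2-Ob shared its probe set with the gene model Gm20506, so neither member had a value of its own.

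Mammary glands of nulliparous FVB females were compared in 4 groups: wild type on standard chow, MMTV-PPARd transgenic mice on standard chow, wild type on chow with GW501516 and MMTV-PPARd mice on chow with GW501516. Wild-type mice were littermates of the same age. GW501516, a drug-like activator of PPARδ, a fatty acid-sensing nuclear receptor, was given for 1 week. The MMTV promoter, of the mouse mammary tumour virus, drives transgenes mainly in mammary epithelium, while class II genes are known mainly from immune cells of the gland. Each group was 1 array hybridised with RNA pooled from 5 mice, so no difference has a replicate check and no test was made. The agonist content of the chow was labelled 0.005% in the group names and 0.001% in a treatment tag. Ppard, the transgene's product, read 2.1 and 1.5 in wild type on chow and on GW501516 and 1943 and 4224 in the transgenic pools on the same diets, which goes with the labels. The array of transgenic mice on chow stood apart in its control transcripts. On it the BioB probe sets, which read a spiked bacterial transcript, lay between 19.3 and 34.2 against 280.5 to 519.0 on the other 3 arrays, and the Gapdh control probe sets between 2986 and 4001 against 6753 to 12274. In these whole-gland samples fewer cells of a type and less RNA per cell cannot be told apart. Defining markers of the labelled tissue were present: all 11 epithelial genes and all 7 measured white adipocyte genes lay above the floor of 20.5 on all 4 arrays.

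An MHC class II molecule is a pair of an α and a β chain. H2-Aa and H2-Ab1 encode the chains of the I-A molecule, and H2-Eb1 encodes the β chain of I-E, whose α chain gene is H2-Ea. New molecules are held by the invariant chain, Cd74, until they reach an acidic compartment, where H2-DM, made from H2-DMa and an H2-DMb chain, exchanges the last piece of Cd74 for peptide and H2-DO, made from H2-Oa and H2-Ob, restrains H2-DM. Ciita is the coactivator that turns this gene set on, and it acts through factors bound to conserved promoter elements, the X box (the RFX complex) and the Y box (NF-Y). B cells, dendritic cells and activated macrophages make class II molecules constantly or readily, and interferon gamma induces Ciita in many other cells. Mice of the H2 haplotype carried by FVB make no I-E at the cell surface.

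The promoters are shown because the members are known to be switched together through these elements. Of the 8 members, 5 had an entry in RefSeq's promoter table of GRCm38.p6, the genome of C57BL/6J and not of FVB. H2-Ab1, Cd74 and Ciita had none. The 150 bases before the start of 4 members and of H2-Oa, the partner of H2-Ob, are given 5′ to 3′ on the gene's strand. Capitals mark the Y box core GATTGG or its reverse complement CCAATC, the X box core (AGNNAC followed directly by NNATG) and, in H2-Aa, the cyclic AMP response element TGACGTCA, each searched on both strands.
H2-Aa (chr17:34287824-34287973, - strand): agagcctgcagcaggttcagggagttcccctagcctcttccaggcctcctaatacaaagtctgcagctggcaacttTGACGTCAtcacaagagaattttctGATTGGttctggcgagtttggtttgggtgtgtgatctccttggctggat
H2-Eb1 (chr17:34305717-34305866, + strand): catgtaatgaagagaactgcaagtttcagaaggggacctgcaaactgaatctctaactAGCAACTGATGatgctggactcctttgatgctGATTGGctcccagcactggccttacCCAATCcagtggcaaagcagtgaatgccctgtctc
H2-DMb1 (chr17:34153041-34153190, + strand): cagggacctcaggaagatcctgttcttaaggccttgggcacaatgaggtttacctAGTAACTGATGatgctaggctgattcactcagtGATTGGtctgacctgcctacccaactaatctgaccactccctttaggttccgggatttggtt
H2-Ob (chr17:34238755-34238904, + strand): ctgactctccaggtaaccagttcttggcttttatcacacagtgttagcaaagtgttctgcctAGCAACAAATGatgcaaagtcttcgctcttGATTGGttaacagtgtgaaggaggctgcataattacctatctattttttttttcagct
H2-Oa (chr17:34092229-34092378, + strand): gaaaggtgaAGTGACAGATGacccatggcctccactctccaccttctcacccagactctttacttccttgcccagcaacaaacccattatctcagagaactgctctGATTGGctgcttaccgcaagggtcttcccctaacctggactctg
The Y box core was found 60 bases before the start in H2-Eb1, 62 in H2-DMb1, 58 in H2-Ob, 49 in H2-Aa and 44 in H2-Oa, and H2-Eb1 held a further copy on the opposite strand at 35. The X box core preceded it in H2-Eb1, H2-DMb1 and H2-Ob, with 21, 22 and 19 bases between the elements. H2-Aa had no match to these X box letters but held the response element TGACGTCA 74 bases before the start. In H2-Oa the letters matched 86 bases away from the Y box. Of H2-DMa's 2 windows of 300 bases, 1 held the Y box core, 199 bases before that start, and neither held the X box core. Over all 32851 promoters of 300 bases in the table, 16.1% held the Y box core, 3.09% the X box core, 0.484% both and 1.79% the response element. A match describes the letters only.

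Class II transcripts were lower in both pools fed GW501516 than in both pools on chow. This held for each of the 10 probe sets of a single member, against 18% of all 20380 probe sets of a single gene. All 10 were highest in wild type on chow and second in transgenic mice on chow, against 7.66% of all. The full order, with transgenic mice on GW501516 lowest, held for 8 of the 10 and for 4.35% of all, both exceptions being probe sets of Ciita. Summed over the 6 genes, each by its brightest probe set, intensity in transgenic mice on chow was 63.7% of that in wild type on chow, in wild type on GW501516 43.5% and in transgenic mice on GW501516 35.4%. The sum is carried by the brightest genes.

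**Figure D1:**
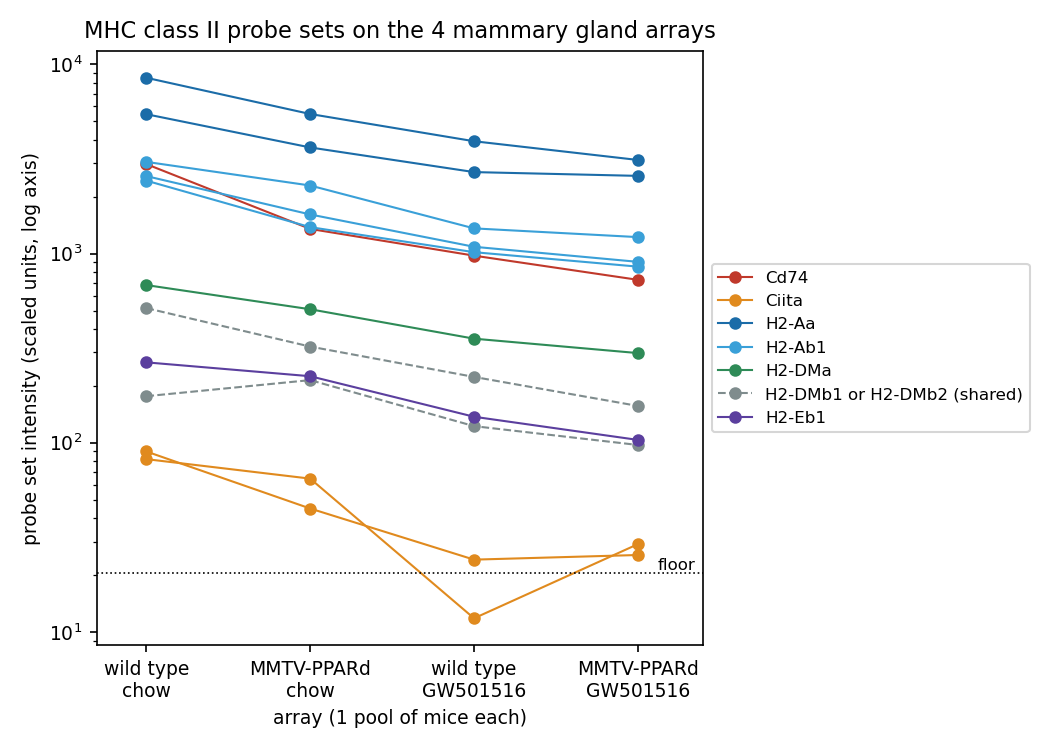
Intensity of the MHC class II probe sets (vertical log axis, scaled array units) on the 4 arrays (horizontal axis, 1 pool of 5 mice each). The probe set shared by H2-Ob and Gm20506, below the floor on every array, is not drawn. Lines join the values of 1 probe set, dashed grey lines are probe sets shared by H2-DMb1 and H2-DMb2, and the dotted line is the floor of 20.5. Most lines run downward from wild type on chow to the GW501516 pools. The shared probe set 1418638_at rises between the chow pools, from 176.2 to 214.3, before it falls. Both Ciita lines, close to the floor, rise from wild type to transgenic mice on GW501516.

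Both chains of I-A were lower on each GW501516 array than on each chow array. The brighter H2-Aa probe set (1452431_s_at) read 8497 in wild type on chow, 5467 in transgenic mice on chow, 3925 in wild type on GW501516 and 3125 in transgenic mice on GW501516. The other (1435290_x_at) read 5454, 3639, 2696 and 2575 in the same order. Both H2-Aa probe sets therefore ranked the arrays alike, but they separated the GW501516 pools by different amounts, 1.26-fold and 1.05-fold. The suffixes _s_at and _x_at mark probe sets whose probes can also bind related transcripts, and H2-Aa had no probe set without them.

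H2-Ab1, the β chain, was read by 3 probe sets. The brightest (1450648_s_at) read 3053 and 2290 on the wild-type and transgenic chow arrays and 1359 and 1222 on the GW501516 arrays. The second (1425477_x_at) read 2567, 1610, 1086 and 904.1, and the third (1451721_a_at) 2429, 1379, 1017 and 852.9. The 3 probe sets kept the same order of arrays, and GW501516 in wild type was 2.25-fold, 2.36-fold and 2.39-fold lower than chow by them. They agreed less on the transgene on chow, where transgenic mice were 1.33-fold, 1.595-fold and 1.76-fold lower.

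H2-Eb1, the β chain of I-E, had 1 probe set (1417025_at), which read 266.0 in wild type on chow, 224.7 in transgenic mice on chow, 137.2 in wild type on GW501516 and 103.5 in transgenic mice on GW501516. Its agonist difference was 1.94-fold lower in wild type and 2.17-fold lower in transgenic mice. It was the 1 member of the 5 that passed the filter below whose difference was larger in transgenic mice. Its partner H2-Ea, which is no member, is annotated as a transcribed pseudogene in the C57BL/6J reference. The brightest H2-Ea probe set (1422892_s_at) read 168.2, 140.2, 49.8 and 34.0 in the same order of arrays, lower on GW501516 by 3.38-fold in wild type and 4.12-fold in transgenic mice. A second read 162.7, 85.3, 37.8 and 26.2, and the third lay below the floor on all arrays.

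Cd74, the invariant chain, had the largest differences of the 5 members that passed the filter described below, except for the agonist in transgenic mice. Its probe set (1425519_a_at) read 2971 in wild type on chow, 1350 in transgenic mice on chow, 975.0 in wild type on GW501516 and 726.4 in transgenic mice on GW501516. On GW501516 it was 3.05-fold lower in wild type and 1.86-fold lower in transgenic mice. The transgenic pool was 2.20-fold lower than wild type on chow and 1.34-fold lower on GW501516, so that the pool with both transgene and agonist stood 4.09-fold below untreated wild type.

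The peptide exchange chain H2-DMa (1422527_at) read 681.4 in wild type on chow, 507.7 in transgenic mice on chow, 354.9 in wild type on GW501516 and 297.8 in transgenic mice on GW501516. These values were 1.92-fold and 1.71-fold lower with the agonist in wild type and transgenic mice, the smallest agonist differences of the 5 members that passed the filter when each gene is read by its brightest probe set. The other H2-Aa probe set differed less in transgenic mice, 1.41-fold. The probe sets shared by H2-DMb1 and H2-DMb2 did not rank the arrays alike. One (1449580_s_at) read 514.8, 322.3, 222.8 and 156.5, in the order seen for H2-DMa. The other (1418638_at) read 176.2, 214.3, 122.4 and 97.3, so its highest array was transgenic mice on chow. A probe set of H2-DMb2 alone (1419744_at) read 298.3 in wild type on chow and 85.9, 67.9 and 54.7 in the others, which set wild type on chow apart from all 3 other arrays.

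The H2-DO chains differed in what could be read. H2-Oa, a non-member known mainly from B cells, read 297.6 on the wild-type and 204.5 on the transgenic chow array, and 25.3 and 30.3 on the GW501516 arrays, which is 11.8-fold and 6.75-fold lower with the agonist. The probe set shared by H2-Ob and Gm20506 read 19.3, 1.7, 11.1 and 3.0, below the floor on every array, so no difference is given.

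Ciita, the coactivator, was read near the limit of the arrays. The brighter probe set (1421211_a_at) read 81.9 in wild type on chow, 64.6 in transgenic mice on chow, 11.8 in wild type on GW501516 and 29.1 in transgenic mice on GW501516. Since 11.8 lies below the floor, the agonist difference in wild type was at least 3.995-fold, against 2.22-fold in transgenic mice. The other (1421210_at) read 89.9, 44.9, 24.1 and 25.5, a difference of 3.73-fold in wild type and 1.76-fold in transgenic mice. By both probe sets the chow arrays were above the GW501516 arrays, but on GW501516 the transgenic pool was not below wild type. Neither probe set reached the median of all values, 139, on any array.

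A fixed rule was used to set the members beside all genes: values under the 25th percentile of all values, 20.5, were raised to this floor, each gene was read by its brightest probe set, and genes were kept where at least 1 array reached 139. This left 7835 genes and 5 of the 8 members, H2-Aa, H2-Ab1, H2-Eb1, H2-DMa and Cd74. Ciita failed the filter, and H2-DMb1 and H2-Ob had no probe set of their own. With the agonist in wild type, 3 of the 5 were at least 2-fold lower (H2-Aa by 2.16-fold, H2-Ab1 and Cd74) and all 5 were below 0. Over all genes 3.25% were at least 2-fold lower and 54.9% were below 0, and the median log2 difference was -1.11 for the members and -0.037 for all genes. With the agonist in transgenic mice 1 of the 5 was at least 2-fold lower, H2-Eb1, against 4.07% of all genes, and all 5 were below 0, against 53.1%. H2-Eb1 passed the filter only on the chow arrays, where it was higher. The other 4 were lower by 1.71-fold to 1.87-fold, and the medians were -0.89 and -0.034. The transgenic chow array, with the low control transcripts given above, enters this comparison. The agonist comparisons share no array.

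The transgene comparisons gave smaller differences. On chow the transgenic array was at least 2-fold below wild type for 1 of the 5 members, Cd74, against 3.70% of all genes, and the median was -0.42 against 0.020. On GW501516 none of the 5 was, against 1.19% of all genes, and the median was -0.33 against 0.0016. For transgenic mice on GW501516 against wild type on chow, all 5 were at least 2-fold lower, against 4.21% of all genes, with a median of -1.36 and a range from 2.29-fold for H2-DMa to 4.09-fold for Cd74. This last comparison does not use the transgenic chow array, and it shares its arrays with other comparisons above, so it is no separate evidence.

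The only scatter that these data hold is that between probe sets of 1 gene. Over 2534 genes with a further probe set past the filter, the difference between the kept probe set and the median of the others had an SD of 0.35 (log2) for the agonist in wild type, 0.45 for the agonist in transgenic mice, 0.38 for the transgene on chow and 0.37 for the transgene on GW501516. All 5 members were lower by more than the SD in both agonist comparisons, against 16.6% of all 7835 genes in wild type and 17.7% in transgenic mice. On chow 4 of the 5 were for the transgene, against 19.7% of all genes, with H2-Eb1 at -0.24 within the SD. On GW501516 the neighbouring levels of the 2 genotypes were within the SD for H2-Aa, H2-Ab1 and H2-DMa, and beyond it for H2-Eb1 at -0.41 and Cd74 at -0.42, against 13.4% of all genes. The step between the middle arrays, from transgenic mice on chow to wild type on GW501516, was beyond its SD of 0.396 for all 5, at -0.47 to -0.75, against 23.8% of all genes. Every probe set was read on the same arrays, so this SD leaves out all scatter between mice, pools and arrays.

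The agonist difference was smaller in transgenic than in wild-type mice for 4 of the 5 members, and the difference between the effects was above 0 for 50.5% of all genes, with a median of 0.0054. The difference between the log2 effects was 0.71 for Cd74, 0.31 for H2-Aa, 0.26 for H2-Ab1, 0.17 for H2-DMa and -0.16 for H2-Eb1. Probe sets of 1 gene scattered by 0.54 in this quantity, so by the brightest probe sets only Cd74 lay beyond that SD, with 14.3% of all genes above it. H2-Ab1 lay beyond it too, at 0.56, by the probe set 1451721_a_at. On chow all 5 members were already lower in transgenic mice, and the comparison rests on the array that stood apart.

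On chromosome 17 the class II genes lie side by side with genes of MHC class I presentation and with Brd2, a chromatin reader. In chromosomal order the stretch runs H2-Oa, Brd2, H2-DMa, H2-DMb2, H2-DMb1, Psmb9, Tap1, Psmb8, Tap2, H2-Ob, Gm20506, H2-Ab1, H2-Aa, H2-Eb1, H2-Eb2 and H2-Ea. Psmb8 and Psmb9 are subunits of the immunoproteasome, and Tap1 and Tap2 form the transporter that moves its peptides into the endoplasmic reticulum. With the agonist all 12 genes of the stretch that had a probe set of their own were below 0 in both genotypes, by different amounts, except that Tap2 in transgenic mice, at -0.023, was above 0 with arrays shifted to one median (0.047) or quantile normalized (0.055). Tap1 was 2.02-fold lower in wild type (331.3 against 163.9) and Psmb9 2.21-fold lower in transgenic mice (1905 against 862.7). Psmb8 read 2707 and 1575 in wild type, while Tap2, next to it, read 727.2 and 595.6 in wild type and 751.0 and 738.9 in transgenic mice. On chow the class I genes of the stretch differed little between genotypes, with log2 differences from -0.010 to 0.078. These lay around 0 and changed sign under other scalings for Psmb9 and Tap2. The differences were -0.24 to -0.64 for H2-DMa, H2-Ab1, H2-Aa and H2-Eb1, -0.54 for H2-Oa, -1.80 for H2-DMb2 and -0.26 for H2-Ea. The probe sets shared by H2-DMb1 and H2-DMb2 stood at -0.68 and 0.28. This comparison uses the transgenic chow array, with its low control transcripts.

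**Figure D2:**
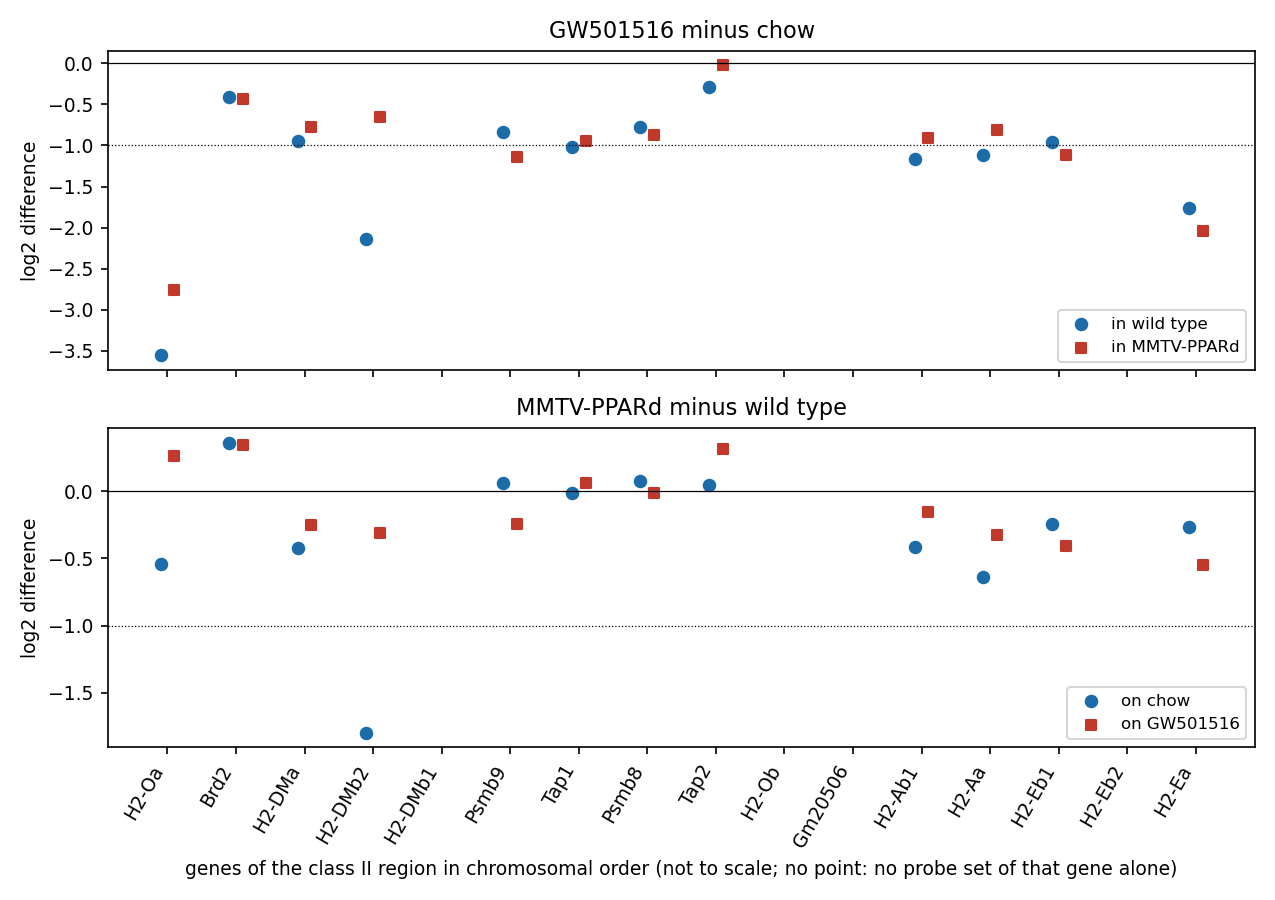
Log2 difference (vertical axis) of each gene of the class II stretch of chromosome 17, in chromosomal order and not to scale. The upper panel gives GW501516 minus chow in wild type (circles) and transgenic mice (squares), the lower panel transgenic minus wild type on chow (circles) and on GW501516 (squares), and dotted lines mark a 2-fold lower value. H2-Oa has the lowest points of the upper panel, -3.56 and -2.75, and H2-DMb1, H2-Ob, Gm20506 and H2-Eb2 have no point.

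The factors that bind class II promoters, which form the RFX, NF-Y and CREB complexes, differed less between the arrays. None of the 6 measured members of the list Rfx5, Rfxap, Rfxank, Nfya, Nfyb, Nfyc and Creb1 was at least 2-fold changed with the agonist in either genotype. Few genes were: 3.25% of all genes were at least 2-fold lower and 3.18% higher in wild type, and 4.07% and 3.98% in transgenic mice. A count of 0 among 6 is therefore near the share of all genes. Their log2 differences ran from -0.24 to 0.50 in wild type and from -0.54 to 0.043 in transgenic mice. Creb1 failed the filter but lay above the floor on all arrays. It read 124.0 on chow and 74.4 on GW501516 in wild type, and 130.1 and 77.7 in transgenic mice. Its log2 differences, -0.737 and -0.744, lay outside these ranges.

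The enzymes and inhibitors that prepare peptides and remove Cd74 were mixed. Of 12 measured genes, Ctse, the endosomal protease cathepsin E, was at least 2-fold lower with the agonist in wild type, by 3.41-fold, and in transgenic mice by 2.93-fold. Its values were 677.4 and 1055 on chow and 198.5 and 360.2 on GW501516 for wild type and transgenic mice. Ctss, cathepsin S, which cuts Cd74 for its final removal, was 2.06-fold lower with the agonist in transgenic mice (3798 against 1848) and read 3494 and 2224 in wild type. In all, 1 of the 12 was at least 2-fold lower in wild type and 2 in transgenic mice, against 3.25% and 4.07% of all genes. The medians of the list were -0.16 and 0.11, the latter -0.12 under quantile normalization, and 9 of 12 and 6 of 12 genes were below 0.

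Genes that lead from interferon gamma to Ciita gave no 2-fold difference among the 5 measured, and Ifng itself read 0.6 to 10.1, below the floor on all arrays. Among 9 measured interferon gamma targets, 3 were at least 2-fold lower with the agonist in wild type, against 3.25% of all genes. These were Cxcl9, a chemokine for T cells (2.87-fold, 538.3 against 187.6), Ifi47, a GTPase (2.51-fold), and Icam1, an adhesion molecule (2.09-fold). In transgenic mice 4 were, against 4.07% of all genes. They were Cxcl9 at 3.99-fold (999.8 against 250.6), Ifi47 at 2.05-fold, the GTPase Iigp1 at 2.04-fold and the guanylate binding protein Gbp3 at 2.002-fold. The medians were -0.66 and -0.97. Between genotypes on chow the list had a median of 0.18, with Cxcl9 higher in transgenic mice at 999.8 against 538.3, where the class II members had -0.42.

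MHC class I presentation was measured by 13 genes, of which 1 was at least 2-fold lower with the agonist in each genotype, Tap1 in wild type and Psmb9 in transgenic mice. Over all genes 3.25% were in wild type and 4.07% in transgenic mice. The medians were -0.18 and -0.030, the latter 0.041 with arrays shifted to one median. Of 8 costimulatory genes, which antigen-presenting cells use beside class II molecules, only Cd86 and Cd40 passed the filter, both through wild type on chow alone, where they were highest. Without the filter the agonist difference of the 8 had a median of -0.27 for wild type and -0.34 for transgenic mice. In each genotype 2 of 8 were at least 2-fold lower, against 394 and 478 of all 12393 genes. Cd40 read 145.1 and 51.8 in wild type (2.80-fold lower with the agonist) and 77.9 and 32.5 in transgenic mice (2.40-fold). Cd86 read 207.9 and 97.2 in wild type (2.14-fold) and 121.5 and 84.5 in transgenic mice (1.44-fold). The second gene at least 2-fold lower in transgenic mice was Icosl, which failed the filter. It read 71.0 and 34.0 in transgenic mice (2.09-fold) and 74.1 and 55.6 in wild type (1.33-fold).

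**Figure D3:**
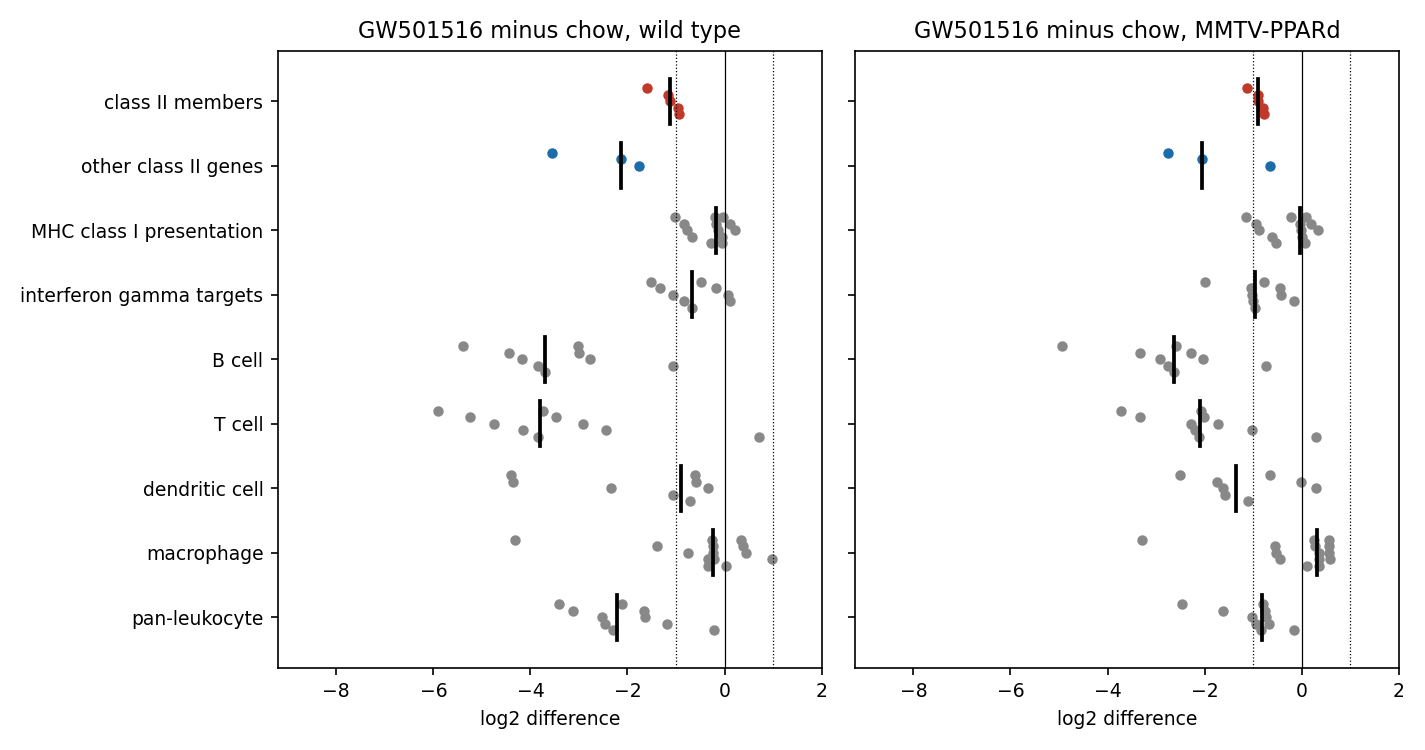
Log2 difference of GW501516 minus chow (horizontal axis) for the kept genes of each list, in wild type (left) and transgenic mice (right). Each point is 1 gene, black bars are list medians and dotted lines mark 2-fold. The 5 class II members sit between -1.61 and -0.77 in both panels, to the right of most B cell and T cell genes and to the left of most macrophage genes. Of the kept genes, 8 of 9 B cell, 9 of 10 T cell and all 3 other class II genes passed the filter through the chow arrays alone. So did 4 of 8 dendritic cell genes, 2 of 14 macrophage genes and the member H2-Eb1. The place of these lists in the panels is thus set in part by the filter.

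Markers of the cells that make class II molecules were read on the same arrays. Of 13 B cell markers with a probe set, 12 were at least 2-fold lower with the agonist in wild type and 9 in transgenic mice, without a filter. Among all 12393 genes without a filter, 394 and 478 were. The medians of the 13 were -2.995 and -2.285, in which genes under the floor stand at their bound. The filter kept 9 of them, 8 through the chow arrays alone, where they are high, so the medians of these 9, -3.70 and -2.63, are set in part by the filter. With the floor at the 40th percentile the median of the 9 in transgenic mice was -0.89, a value set by the floor. With no floor other than 1 it was -2.75. The median of the class II members was -0.89 under both of these settings. Summed over 13 B cell genes, intensity was 54.7% of wild type on chow in transgenic mice on chow, 11.4% in wild type on GW501516 and 10.7% in transgenic mice on GW501516. On both GW501516 arrays 8 of the 13 genes were below the floor, among them Fcer2a, Cr2 and Cd79a. Fcer2a, a low-affinity IgE receptor, read 266.9, 123.5, 0.6 and 2.1, while Blnk, a signalling adaptor, read 554.3, 459.5, 267.1 and 274.3 and differed least of the 9 with the agonist, 2.08-fold and 1.68-fold lower.

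Macrophage markers differed less. With the agonist 2 of 14 were at least 2-fold lower in wild type, Marco, a scavenger receptor (at least 20.0-fold), and Fcgr1, a high-affinity IgG receptor (2.63-fold), and 1 of 14, Marco, in transgenic mice (at least 9.72-fold). The medians were -0.24 and 0.31. Only the chow arrays carried Marco and Msr1 past the filter, so these counts and medians are set in part by it. Taking all 15 macrophage genes unfiltered, the counts became 3 in wild type and 1 in transgenic mice, with medians of -0.24 and 0.27. The unfiltered counts for all 12393 genes were 394 and 478. Summed over 15 genes, macrophage intensity was 70.4%, 84.3% and 77.0% of wild type on chow in transgenic mice on chow, wild type on GW501516 and transgenic mice on GW501516. Dendritic cell markers had medians of -0.89 and -1.35, with 4 and 5 of 8 at least 2-fold lower, against 3.25% and 4.07% of all genes. However, 4 of the 8 passed the filter through the chow arrays alone. Without the filter 6 and 8 of 13 were at least 2-fold lower, against 394 and 478 of all 12393 genes. Ccl22, a chemokine, read 417.8, 61.7, 18.2 and 13.5, Ccr7, the receptor that guides these cells and T cells to lymph nodes, 431.0, 115.9, 4.0 and 2.6, and Irf8, a transcription factor also found in B cells, 717.7, 436.7, 142.7 and 141.9. Of the 8 that passed the filter, only Batf3 was higher with the agonist in transgenic mice, at 0.30. Zbtb46, Cd209a and Cd83 were higher in transgenic mice than in wild type on chow. The summed intensity of 13 dendritic cell genes was 62.0%, 51.6% and 49.4% of wild type on chow, with 4 genes under the floor on each GW501516 array. This sum is carried by Fscn1, which read 6427, 3820, 3909 and 3797 in the same order of arrays as Ccl22.

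Genes shared by most leukocytes were lower as well. Of 10 measured pan-leukocyte genes, 9 were at least 2-fold lower with the agonist in wild type and 3 in transgenic mice, against 3.25% and 4.07% of all genes. Over 12 genes the summed intensities of this list were 45.9%, 21.6% and 20.5% of wild type on chow. T cell genes, which are not a source of class II in mice, had summed intensities of 33.7%, 9.57% and 8.48% over 11 genes, with 5 under the floor in wild type and 6 in transgenic mice on GW501516. Zap70 went the other way, at 208.9 and 223.4 on the wild-type and transgenic chow arrays and 339.3 and 273.9 on the GW501516 arrays. It made up most of the T cell sums on GW501516, 551.8 and 489.0. Of the 10 T cell genes that passed the filter, 9 did so through the chow arrays alone. Skeletal muscle genes were higher, with summed intensities of 234%, 882% and 849% over 12 genes, all 12 at least 2-fold higher with the agonist in both genotypes, against 3.18% of all genes in wild type and 3.98% in transgenic mice. Epithelial genes stood at 163%, 113% and 182% and white adipocyte genes at 73.9%, 106% and 103%. The part of these shifts in the class II values was not tested.

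**Figure D4:**
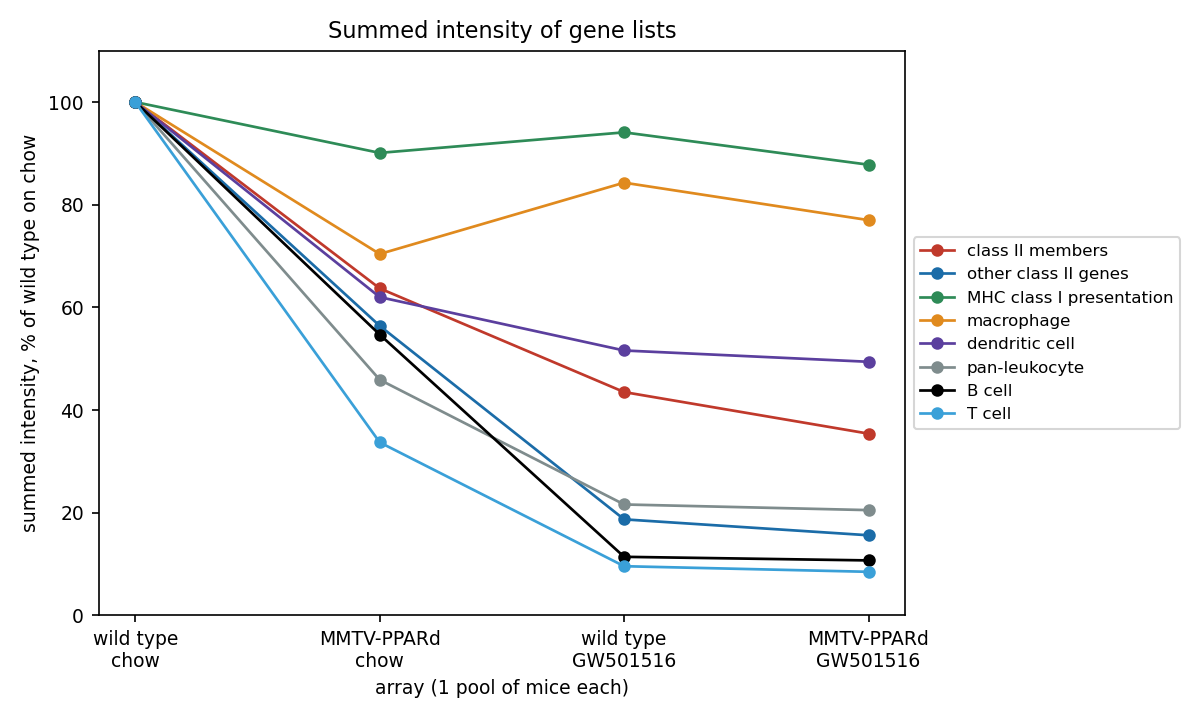
Summed intensity of each list (vertical axis, percent of wild type on chow) on the 4 arrays (horizontal axis), each gene by its brightest probe set. The class II members, at 43.5% and 35.4% on GW501516, lie between the B cell and T cell lists near 10% and the macrophage list near 80%. On GW501516 the B cell and T cell sums are carried largely by Blnk and Zap70.

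The genes whose profile over the 4 arrays was nearest to the members were sought among the other 7830 kept genes. Log2 values were centred on each gene's mean, and the distance was the root mean square difference from the median profile of the 5 members, which stood at 0.73, 0.22, -0.32 and -0.64 in wild type on chow, transgenic mice on chow, wild type on GW501516 and transgenic mice on GW501516. The 10 nearest were Pon1, Stk17b, Laptm5, Cxcr3, Icam1, Me2, Ifitm1, 2610524H06Rik, Csf2rb2 and Crlf3, at distances of 0.060 to 0.103 against a median of 0.55 over all genes. Pon1, paraoxonase 1, read 617.4, 428.9, 279.4 and 216.1. Laptm5, a lysosomal membrane protein of leukocytes, read 2635, 1622, 1167 and 962.2, and Cxcr3, the receptor of Cxcl9, 189.7, 118.8, 83.5 and 72.3. Among the members themselves the distances were 0.045 for H2-Aa, 0.063 for H2-DMa, 0.083 for H2-Ab1, 0.107 for H2-Eb1 and 0.27 for Cd74, so H2-Eb1 and Cd74 were farther from the members' median profile than all 10 of these genes. With 4 arrays, many genes can share a profile of this shape.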

How the data were processed

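Mammary gland RNA pooled from 5 mice per group was labelled with biotin and hybridised to 1 Affymetrix mouse array per group, per the labels' protocols. The table deposited by the authors held linear probe set intensity values, never negative. The summarisation software was not given in the sources used here. Trimmed means without the lowest and highest 2% were 500.17 to 500.2 on all arrays, so the authors' intensity values had been scaled to 1 level. The number of arrays limits the precision.

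Symbols came from the platform annotation, updated by gene ID through a RefSeq table. Of 22690 probe sets, 20393 had 1 symbol, 691 several and 1606 none, and 64 control probe sets were left out of gene counts. Log2 differences, counts at 2-fold and medians were computed in Python 3.11.15 with pandas 2.3.3, and no test was possible with 1 array per group. The computation was checked on simulated data.

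The 8 members and the lists were chosen with earlier results of these data known. Named genes were the members, pathway genes at least 2-fold changed (up to 4 per list and comparison), up to 3 extreme markers per cell list and the 10 nearest profiles. Genes of the chromosome 17 stretch, the search for TGACGTCA and genes named with smaller differences were chosen after the values were seen. Alternatives covered scaling, floor, filter and probe set choice.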

Additional observations from a re-analysis of the deposited data

Results flagged for a closer look

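The results below went in opposite directions in the groups compared, and none of these differences was tested, since each group was 1 array. The less bright Ciita probe set was lower in transgenic mice on chow, with a log2 difference of -1.002, and slightly higher on GW501516, at 0.081 (44.9 against 89.9, and 25.5 against 24.1). A probe set shared by H2-DMb1 and H2-DMb2 (1418638_at) was higher in transgenic mice on chow by 0.28 and lower on GW501516, at -0.33, while the other shared probe set was lower on both diets. The list of class II processing and turnover had a median of -0.16 for the agonist in wild type and 0.11 in transgenic mice. The macrophage list had a median of -0.24 in wild type and 0.31 in transgenic mice. The median of processing genes in transgenic mice was -0.12 under quantile normalization. All 4 of these results use the transgenic chow array, on which the control transcripts were low.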

How the results depend on the processing

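The median of the measured members kept its sign in all 6 comparisons under 8 alternatives (other scalings, floors, filters and choices of probe set) and under 1 chosen after seeing the data, which took every member probe set, shared ones included. It ranged from -1.14 to -1.06 for the agonist in wild type, -0.90 to -0.81 in transgenic mice, -0.62 to -0.42 for the transgene on chow, -0.33 to -0.25 on GW501516 and -1.44 to -1.36 for both together, and from 0.21 to 0.41 for the difference of agonist effects. With the agonist in transgenic mice the count of members at least 2-fold lower was 1, but 2 without a filter, where Ciita enters, and 0 with the filter at the 75th percentile, which removes H2-Eb1. Of 282 other values of single members, 9 moved by more than the probe set SD. Ciita made up 8 of these, and its log2 difference for the agonist in wild type was -2.795 without a floor and -0.20 with the floor at the 40th percentile. The ninth was H2-Ab1 for the transgene on chow, at -0.82 without _x_at and _s_at probe sets, where H2-Aa had no value. The count of all genes changed at least 2-fold with the agonist in wild type was 504, 760 without a filter and 225 with the stricter filter. The stricter filter gave 293 for the agonist in transgenic mice, 349 for the transgene on chow, 169 on GW501516, 361 for both together and 349 for the difference of agonist effects, where no filter gave 1159. The B cell median for the agonist in wild type was -2.18 with the higher floor, and in transgenic mice -0.89. Low signal limits Ciita, H2-Ob and the B cell genes under the floor. No paired analysis was possible because each group was 1 array.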

Other observations

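Genes of lymph node stroma and vessels gave further large differences. Glycam1, a mucin made by mammary epithelium and by lymph node vessels, was above the floor on all arrays but wild type on GW501516. Cxcl13, the chemokine that draws B cells into follicles, read 2189 and 1032 on the wild-type and transgenic chow arrays and 708.7 and 209.4 on the GW501516 arrays, which is 3.09-fold and 4.93-fold lower with the agonist. Madcam1, an adhesion molecule of such vessels, read 87.9 and 202.6 on chow and 42.8 and 46.1 on GW501516. Of the 3 genes of this list that passed the filter, all 3 were at least 2-fold lower with the agonist in wild type and 2 in transgenic mice. Over all genes 3.25% and 4.07% were. Madcam1 passed through the chow arrays alone.

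Genes of plasma cells, which turn class II genes off as they mature, were mixed. Jchain, the joining chain of secreted antibodies, read 68.9 and 5161 on the wild-type and transgenic chow arrays and 112.4 and 227.0 on the GW501516 arrays. Igha, the IgA heavy chain, read 229.4, 6955, 502.6 and 1409 in the same order. Of the other genes of the list, Xbp1, Sdc1 and Tnfrsf17 were lower in transgenic mice on chow, at log2 differences of -0.057, -0.65 and -0.36, and Prdm1 was higher, at 1.13. The summed intensity of the 6 genes, 190% of wild type on chow in transgenic mice on chow, 93.4% in wild type on GW501516 and 125% in transgenic mice on GW501516, is therefore carried there by Jchain and Igha. The class II members stood at 63.7%, 43.5% and 35.4% on the same arrays.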
